A study of Mus musculus with 8 samples.

Results

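The suppressors of cytokine signalling (SOCS) form a family of 8 genes, Cish and Socs1 to Socs7. They were taken by symbol, and all 8 were present among the 24197 genes of the deposited liver expression table. RNA came from livers of hypophysectomized male CD-1 (ICR) mice, an outbred strain, 11 weeks old and without a pituitary since 7 weeks of age. In 3 groups the mice had received 1 intraperitoneal pulse of recombinant rat growth hormone (GH) (dose, 125 ng per g of body weight), and livers were taken 30, 90 or 240 min later. The fourth group was untreated. The series design calls these mice untreated, while the treatment protocol speaks of a vehicle injection, so, if they were not injected, GH and the act of injecting cannot be told apart. All groups lacked the pituitary, and with it the hormones it releases besides GH. Each group was 2 pools of liver RNA, with 4 mice per pool per the deposited legend.

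SOCS proteins are feedback inhibitors of the JAK-STAT pathway. GH binds its receptor Ghr on hepatocytes, the kinase JAK2 phosphorylates STAT5, and STAT5 activates target genes that include Cish and Socs2. Cytokines of the interleukin-6 family act through STAT3, which activates Socs3, and interferons induce Socs1. The family shares an SH2 domain, which binds phosphorylated tyrosines of receptors or kinases, and a SOCS box, which recruits a ubiquitin ligase. Socs1 and Socs3 also block JAK kinases directly, and Socs4 to Socs7 are linked mainly to growth factor and insulin receptors.

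RefSeq start regions on build GRCm38.p6 could be matched for 4 of the 8 members, namely Cish, Socs1, Socs3 and Socs4. Those of Cish, Socs3 and Socs1 are shown because these genes followed different courses after GH and their starts differ in the motifs they hold. Each is written 5′ to 3′ on the transcribed strand, and each upstream run ends at the base before the annotated start. Capitals mark matches to TTCNNNGAA, the core of STAT sites, or to GAAA followed after any 2 bases by another GAAA, the core of interferon response elements, with overlapping matches joined. The Cish upstream run is chr9:107296409-107296658 on the plus strand, its first transcribed bases are chr9:107296659-107296688, the Socs3 run is chr11:117969367-117969616 on the minus strand, and the Socs1 run is chr16:10785537-10785786 on the minus strand.
Cish upstream: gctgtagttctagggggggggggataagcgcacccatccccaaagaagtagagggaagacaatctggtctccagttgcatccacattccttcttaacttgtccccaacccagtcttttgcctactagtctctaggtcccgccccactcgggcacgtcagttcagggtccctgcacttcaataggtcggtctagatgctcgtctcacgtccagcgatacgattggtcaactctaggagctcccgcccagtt
Cish first transcribed bases: TTCCTGGAAagTTCTTGGAAatctgtcaaa
Socs3 upstream: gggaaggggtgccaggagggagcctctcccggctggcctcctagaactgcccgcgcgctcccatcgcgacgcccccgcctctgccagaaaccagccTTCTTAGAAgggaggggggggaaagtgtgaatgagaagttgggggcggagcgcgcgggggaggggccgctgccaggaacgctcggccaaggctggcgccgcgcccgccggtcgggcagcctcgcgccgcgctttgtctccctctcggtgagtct
Socs1 upstream: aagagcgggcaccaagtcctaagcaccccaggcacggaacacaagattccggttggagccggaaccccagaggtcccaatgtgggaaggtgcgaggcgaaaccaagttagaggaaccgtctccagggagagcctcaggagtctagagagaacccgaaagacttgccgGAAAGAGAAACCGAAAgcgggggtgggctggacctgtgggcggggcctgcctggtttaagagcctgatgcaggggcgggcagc
Cish held TTCNNNGAA 2 times, at bases 1 and 12 of the transcribed part. Socs3 held it 1 time, with its first base at -154. Socs1 did not hold it in this window and held the interferon core 2 times, at -83 and -77, the matches overlapping each other. Socs4 held neither. Over 32851 RefSeq windows of 300 bases (250 before and 50 after the start), 8.3% held TTCNNNGAA at least once and 0.457% held it 2 or more times, while 3.44% held the interferon core on either strand. A match is a run of letters and not a measured site.

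For each group, the authors deposited a mean FPKM (fragments scaled to feature length and library total), a ratio to the untreated group and an adjusted p. They gave these over the gene body and separately over introns, whose reads stem mostly from unspliced transcripts. The total of each library was recovered as a whole number from the steps in the means of single-exon genes. With these totals, 1 pair of whole read numbers explained each mean of all 8 members, so a value for each pool could be given. The untreated libraries held 7438585 and 10515218 reads, those at 30 min 9498316 and 9846807, those at 90 min 15381216 and 17124712, and those at 240 min 5937824 and 14154646. Which numbered pool has which total is not given, so pools are called the smaller and the larger library of their group, in that order. Values of 2 pools are read as a pair, and an exact two-sided permutation test of 2 pools against 2 cannot give a p below 0.333. A gene was called higher or lower where the authors' adjusted p was below 0.05. These p-values rest on the variation among pools of mice and say nothing of single animals.

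The make-up of the family changed over the time course. In untreated livers Socs3 was the most abundant member per length, with an authors' mean of 35.9 FPKM, which was 68.7% of the summed FPKM of the family. The order below it was Socs6, Socs4, Socs7, Socs5, Cish, Socs1 and Socs2, whose means lay between 3.64 and 1.18 FPKM, and the pools of neighbours overlapped except between Socs3 and Socs6, Socs7 and Socs5, and Socs5 and Cish. Cish and Socs2 together made up 35.4% of the summed family FPKM at 30 min, 43% at 90 min and 67.5% at 240 min, against 5.67% in untreated livers. By library, smaller then larger, the share was 43.7% and 18.9% at 30 min, 36.8% and 50.5% at 90 min and 62.1% and 71.3% at 240 min, against 6.3% and 5% in untreated livers. The share was thus higher in all 6 GH libraries, and its size at 30 min moved with the library. At 240 min Socs2 stood first with a mean of 33.3 FPKM, Cish second with 14.2 FPKM and Socs3 next with 7.35 FPKM, and Socs1 was last with 0.848 FPKM. The pools of Socs2, Cish and Socs3 did not overlap each other at that time. The summed family FPKM was 77.1 at 30 min, 113 at 90 min and 70.4 at 240 min, against 52.3 in untreated livers. By library it was 103 and 51.5 at 30 min, 123 and 103 at 90 min and 58.6 and 82.3 at 240 min, against 54.2 and 50.5 in untreated livers. The larger 30 min library lay between the untreated libraries, so the summed level at 30 min was above them in the smaller library alone. These are levels of liver tissue, in which fewer cells of a type and less RNA per cell cannot be told apart.

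**Figure D1:**
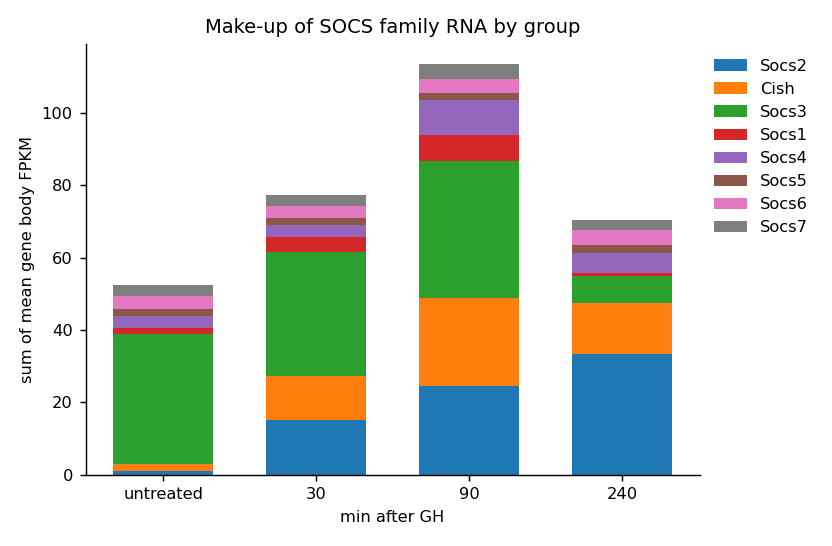
Sum of the authors' mean gene body FPKM of the 8 SOCS family genes in each group, stacked by gene, for untreated livers and for 30, 90 and 240 min after GH. The part of Cish and Socs2 together is 35.4%, 43% and 67.5% of the column at 30, 90 and 240 min, against 5.67% in the untreated column; at 30 min it was 43.7% in the smaller and 18.9% in the larger library.

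**Figure D2:**
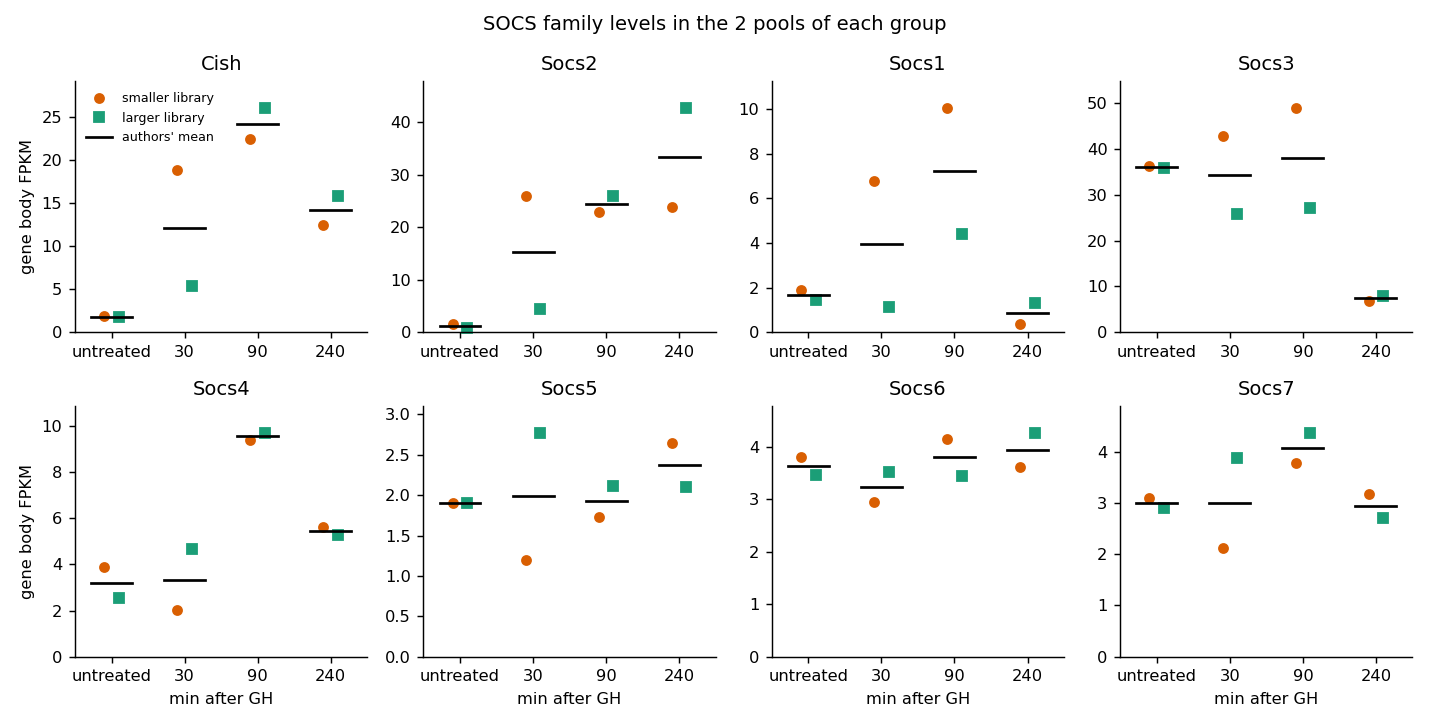
Gene body FPKM of each SOCS family gene in the smaller library (circles) and the larger library (squares) of each group, with the authors' mean as a line; every panel has its own axis from 0. Cish and Socs2 lie above both untreated libraries at all 3 times, and Socs3 lies below them at 240 min alone.

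Cish encodes the SH2 protein CIS, which binds phosphorylated sites of cytokine receptors and takes part in turning off GH signalling. The gene lies at chr9:107199020-107204292 (mm9). Its gene body level was 1.87 and 1.72 FPKM in the untreated libraries, 18.9 and 5.31 FPKM at 30 min, 22.4 and 26.1 FPKM at 90 min, and 12.5 and 15.9 FPKM at 240 min. Both pools of every GH group were above both untreated pools, and the 90 min pools were the highest. Cish was 7.1-fold higher at 30 min (adjusted p = 0.000108), 13.6-fold higher at 90 min (adjusted p = 6.27e-86) and 7.74-fold higher at 240 min (adjusted p = 1.48e-32) in the authors' deposited table. Between times, the quotient of the FPKM means was 2 for 90 over 30 min and 0.584 for 240 over 90 min, with no overlap of the pools in either step; these steps have no p.

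Cish introns, 3112 bases in all, followed the same course. Their level was 0.605 and 0.153 FPKM in the untreated libraries, from 14 and 5 reads. It was 1.59 and 2.74 FPKM at 30 min, 6.46 and 6.29 FPKM at 90 min, and 3.08 and 2.75 FPKM at 240 min. The introns were 5.55-fold higher at 30 min (adjusted p = 0.000335), 12.3-fold higher at 90 min (adjusted p = 1.48e-27) and 6.43-fold higher at 240 min (adjusted p = 2.03e-11) in the authors' deposited table, whose intronic ratios are scaled otherwise than the quotient of the FPKM means. The untreated introns rest on few reads, and the size of the fold depended on which untreated library was used. As quotients of FPKM means it was 5.72, 16.8 and 7.7 at 30, 90 and 240 min with both. It was 14.2, 41.7 and 19.1 without the smaller untreated library, and 3.58, 10.5 and 4.82 without the larger.

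Socs2 encodes the inhibitor whose loss in mice gives overgrowth, and it binds the GH receptor. The table lists 4 overlapping locations for it, each with a transcript accession, within chr10:94874124-94879491 (mm9). Its gene body level was 1.54 and 0.811 FPKM in the untreated libraries, 26.0 and 4.40 FPKM at 30 min, 22.9 and 26.0 FPKM at 90 min, and 23.9 and 42.8 FPKM at 240 min. All pools after GH were above both untreated pools. The 3 GH groups overlapped in their pools from one time to the next, with quotients of the FPKM means of 1.61 for 90 over 30 min and 1.36 for 240 over 90 min. Socs2 was 13.8-fold higher at 30 min (adjusted p = 4.52e-05), 21.6-fold higher at 90 min (adjusted p = 2.07e-106) and 28.3-fold higher at 240 min (adjusted p = 1.09e-43), as the authors' deposited table has it.

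The introns of Socs2, 2670 bases in all, took another course at the last time. Untreated libraries held 4 and 4 intronic reads, which is 0.201 and 0.142 FPKM. The introns held 55 and 23 reads (2.17 and 0.875 FPKM) at 30 min, 84 and 115 reads (2.05 and 2.52 FPKM) at 90 min, and 13 and 25 reads (0.82 and 0.662 FPKM) at 240 min. Both intronic values at 240 min were below both at 90 min, with a quotient of 0.325, while the gene body pools of these times overlapped. Mean intronic FPKM was 10% of mean gene body FPKM at 30 min, 9.32% at 90 min and 2.22% at 240 min, against 14.6% in untreated livers. Intronic reads per gene body read also moved over 7872 genes. They were 0.0977 and 0.154 at 30 min, 0.168 and 0.165 at 90 min, and 0.139 and 0.121 at 240 min, against 0.113 and 0.108 in untreated livers. The introns were 9.48-fold higher at 30 min (adjusted p = 0.00617), 9.05-fold higher at 90 min (adjusted p = 1.42e-11) and 3.29-fold higher at 240 min (adjusted p = 0.0285) in the authors' deposited table. Without the smaller 30 min library the intronic quotient at that time was 5.09-fold, against 8.85-fold with both.

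**Figure D3:**
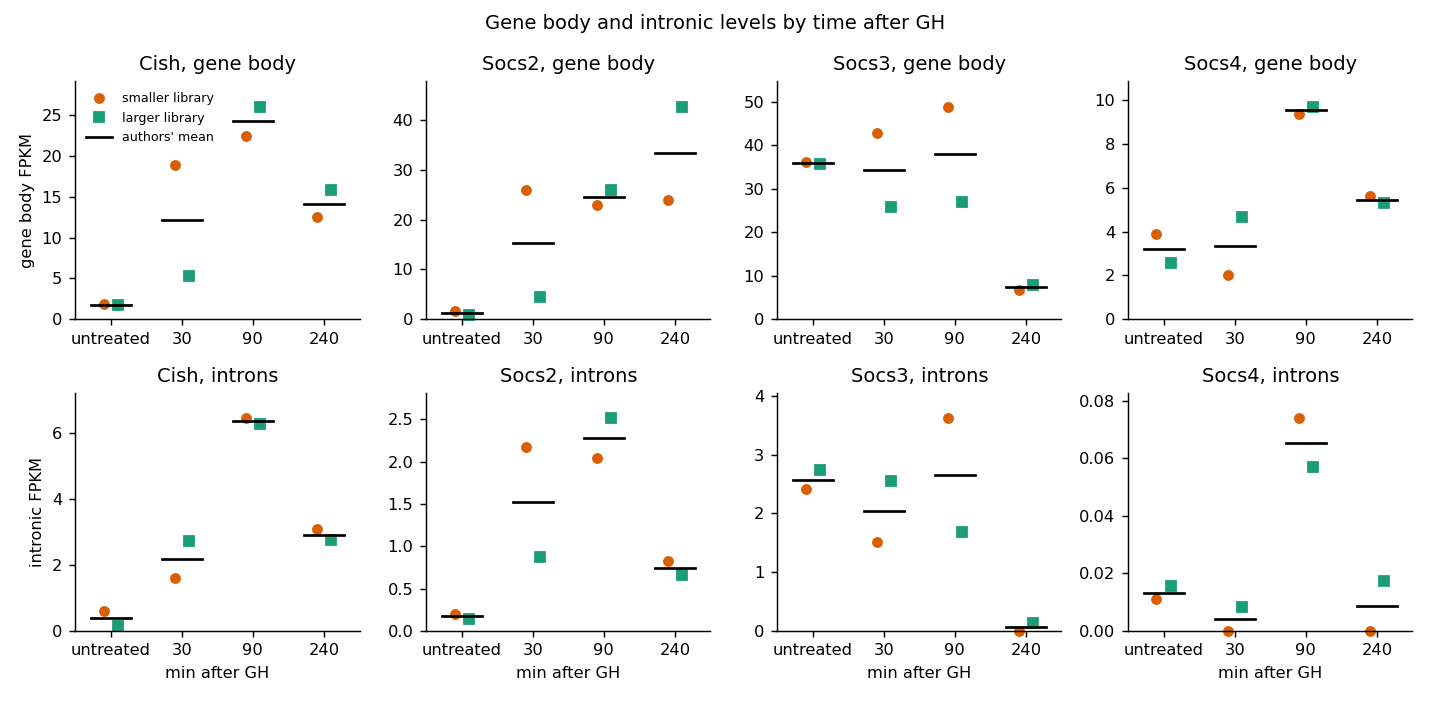
Gene body FPKM (top) and intronic FPKM (bottom) of Cish, Socs2, Socs3 and Socs4 in the smaller (circles) and larger (squares) library of each group, with the authors' mean as a line and an axis from 0 in each panel. Socs2 introns at 240 min lie at 0.82 and 0.662 FPKM, below 2.05 and 2.52 FPKM at 90 min, while its gene body pools at these times overlap.

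The pools at 30 min differed more than those of the other groups, and Cish, Socs2 and Socs1 were among the genes that differed most. The fold between the 30 min pools (higher over lower pool) was 3.56 for Cish, 5.91 for Socs2 and 5.94 for Socs1, each higher in the smaller library. Among genes with at least 40 reads in the pair, the median fold at 30 min was 1.29 and the 95th percentile 2.2, and the 3 values were larger than those of 99.01%, 99.73% and 99.73% of genes. The median fold was 1.11 at 90 min and 1.17 at 240 min, against 1.1 in untreated livers. Some members, not all, had wide pairs in those groups as well. The fold was 2.28 for Socs1 at 90 min (more than 99.49% of genes), 1.81 for Socs3 at 90 min (98.55%), 3.5 for Socs1 at 240 min (99.9%) and 1.91 for Socs2 in untreated livers (99.78%). The Socs1 pair at 240 min rests on 28 reads, below the minimum of 40 for the genes compared, and the untreated Socs2 pair on 54. These shares are not matched on read number, and the part of counting error in such pairs was not tested. Others had closer pairs than most genes, among them Socs4 at 90 min (more than 18.1% of genes) and Socs3 in untreated livers (7.26%). Socs4 and Socs5 differed 2.33-fold and 2.31-fold at 30 min in the other direction, higher in the larger library. For Cish the gene body was higher in the smaller 30 min library and the introns were higher in the larger, with 47 and 84 intronic reads. Over 7872 genes, the smaller 30 min library had 0.0977 intronic reads per gene body read and 32.1% of its gene body reads in transcripts of at least 4000 nt, and the larger had 0.154 and 40.7%. The other 6 libraries ranged from 0.108 to 0.168 and from 35.5% to 42.5%. The part of these values in the difference was not tested.

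The size of the 30 min changes in Cish and Socs2 moved with the pool used. As a quotient of FPKM means Cish was 6.76-fold higher with both pools, 2.96-fold higher without the smaller 30 min library and 10.6-fold higher without the larger. For Socs2 the same quotients were 12.9-fold, 3.74-fold and 22.1-fold. The direction was the same in each case.

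**Figure D4:**
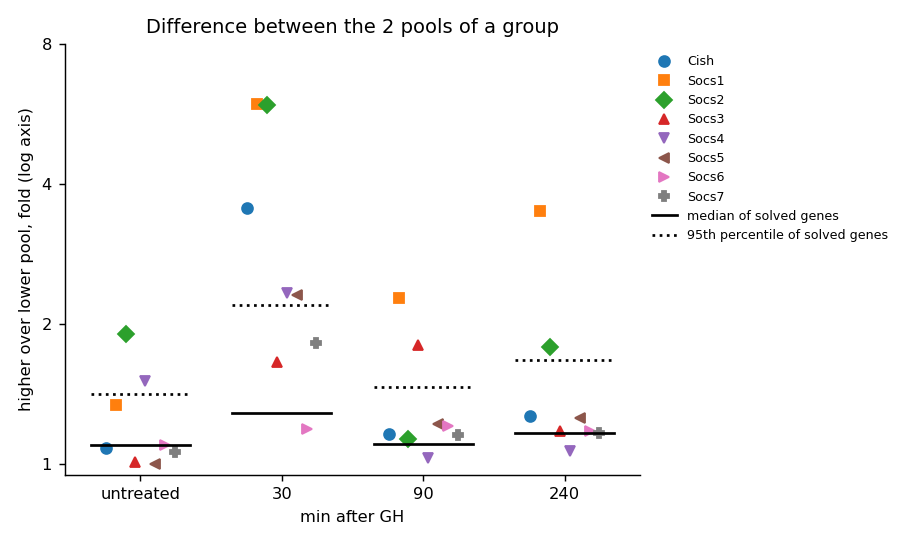
Fold between the higher and the lower pool of each group for the 8 SOCS family genes (symbols, log axis), with the median (solid line) and the 95th percentile (dotted line) of genes with at least 40 reads in the pair. At 30 min Cish, Socs2 and Socs1 stand at 3.56, 5.91 and 5.94, above the 95th percentile of 2.2.

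Socs3 is the feedback inhibitor of interleukin-6 and leptin receptor signalling and a target of STAT3, and it was also listed among the STAT5 targets in liver. It lies at chr11:117827401-117830680 (mm9). Its gene body level was 36.2 and 35.7 FPKM in the untreated libraries, 42.8 and 25.8 FPKM at 30 min, 48.9 and 27.1 FPKM at 90 min, and 6.74 and 7.96 FPKM at 240 min. The pools at 30 and at 90 min lay on both sides of the untreated values, and only those at 240 min lay below. Socs3 had log2 ratios of -0.01 at 30 min (adjusted p = 1) and 0.08 at 90 min (adjusted p = 1) in the authors' deposited table. At 240 min it was 4.99-fold lower in the authors' deposited table (log2 ratio -2.32, adjusted p = 3.73e-40).

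The intronic part of Socs3, 556 bases, was also lower at 240 min. It held 10 and 16 reads in the untreated libraries, 8 and 14 at 30 min, 31 and 16 at 90 min, and 0 and 1 at 240 min. A count of 0 in the smaller 240 min library allows up to 0.909 FPKM at a limit of 3 reads, whereas the untreated libraries had 2.42 and 2.74 FPKM. Summed over pools, 1 read at 240 min against 26 in untreated livers was 29.1-fold lower per library size, with an exact 95% interval of 4.78 to 1190 that covers counting error only. The decrease in the authors' deposited table was 28.7-fold (log2 ratio -4.84, adjusted p = 7.29e-07). Without the smaller 240 min library the quotient of FPKM means was 20.3-fold lower, against 40.6-fold lower with both.

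Socs1, the feedback inhibitor of interferon signalling, had fewer than 2 FPKM in each untreated and 240 min library and more at 90 min. It lies at chr16:10783902-10785629 (mm9). Its gene body level was 1.91 and 1.42 FPKM in the untreated libraries, from 19 and 20 reads. It was 6.76 and 1.14 FPKM at 30 min (86 and 15 reads), 10.1 and 4.4 FPKM at 90 min (207 and 101 reads), and 0.377 and 1.32 FPKM at 240 min (3 and 25 reads). Both pools at 90 min were above the untreated pools, both at 240 min were below them, and those at 30 min lay on either side. Socs1 was 4.37-fold higher at 90 min in the authors' deposited table (adjusted p = 5.85e-06), and its ratios there of 2.51 at 30 min (adjusted p = 1) and 0.593 at 240 min (adjusted p = 0.328) were not called. Without the smaller 90 min library the quotient at 90 min was 2.65-fold, against 4.34-fold with both. The intron of 389 bases held at most 5 reads in any library, too few to follow.

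Socs4, which has been linked to turnover of the EGF receptor, was higher at the 2 later times. It lies at chr14:47896818-47911266 (mm9). Its gene body level was 3.87 and 2.56 FPKM in the untreated libraries, 2.00 and 4.67 FPKM at 30 min, 9.39 and 9.71 FPKM at 90 min, and 5.63 and 5.28 FPKM at 240 min. The pools at 90 and at 240 min were above both untreated pools, and those at 30 min lay outside them on both sides. Socs4 was 3.03-fold higher at 90 min (adjusted p = 7.36e-15) and 1.66-fold higher at 240 min (adjusted p = 0.0254) in the authors' deposited table, where its ratio at 30 min was 1.07 (adjusted p = 1). Its introns, 12295 bases, held 14 and 12 reads at 90 min and at most 3 in any other library. Their ratio at 90 min in the authors' deposited table was 3.12 and not called (adjusted p = 0.336). Ratios at 90 min ran with transcript length over 10314 genes (Spearman's rho 0.486, a description across genes, which are not independent). At 240 min this rho was 0.185. With the trend in length and GC content removed, the log2 ratio of Socs4 was 1.01 instead of 1.6 at 90 min and 0.27 instead of 0.73 at 240 min. The trend took the longest Socs4 transcript, of 6877 nt, while the exonic length behind its FPKM was 2154 bases. The length used was also the longer for Cish (4697 against 2161), Socs1 (2908 against 1339), Socs2 (4242 against 2698) and Socs6 (6036 against 3210). Lengths were close or equal for Socs3 (2552 and 2724), Socs5 (4648 and 4394) and Socs7 (7015 for both). How far such mismatches shaped the corrected ratios was not tested.

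Of Socs5, Socs6 and Socs7, Socs7 alone was called, at 1 time. Socs7, which binds insulin signalling proteins, lies at chr11:97223865-97259856 (mm9). It had 3.09 and 2.9 FPKM in the untreated libraries, 2.12 and 3.87 FPKM at 30 min, 3.77 and 4.37 FPKM at 90 min, and 3.17 and 2.71 FPKM at 240 min. It was called at 90 min alone, 1.36-fold higher in the authors' deposited table (adjusted p = 0.0221), and its log2 ratio of 0.45 was 0.28 with the length and GC trend removed. Socs5, at chr17:87507019-87536925 (mm9), had 1.9 and 1.9 FPKM in the untreated libraries, 1.2 and 2.77 FPKM at 30 min, 1.73 and 2.11 FPKM at 90 min, and 2.64 and 2.11 FPKM at 240 min. Its ratios in the authors' deposited table were 1.07, 1.01 and 1.18 at 30, 90 and 240 min, and none was called. Both 240 min pools of Socs5 were above the untreated pair without a call. Socs6 had 3.81 and 3.47 FPKM in the untreated libraries and between 2.95 and 4.27 FPKM in the 6 GH libraries. Its ratios in the authors' deposited table were 0.92, 1.04 and 1.07 at 30, 90 and 240 min, none called. The introns of these 3 genes were not called at any time either.

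By comparison, the authors' calls over the gene body took 2 members higher and 0 lower at 30 min (Cish and Socs2), where 0.264% of all 24197 genes were called, 0.116% higher and 0.149% lower. At 90 min they took 5 higher and 0 lower (Cish, Socs1, Socs2, Socs4 and Socs7), against 13.4% of all genes, 7.56% higher and 5.83% lower. At 240 min they took 3 higher (Cish, Socs2 and Socs4) and 1 lower (Socs3), against 10.9% of all genes, 6.7% higher and 4.22% lower. Averaged over the groups, every member reached 1 FPKM, and among the 10736 genes at that level the shares called were 0.512%, 28.4% and 23% at 30, 90 and 240 min. Over introns, Cish and Socs2 were called higher at all 3 times and Socs3 lower at 240 min, where 0.566%, 6.23% and 4.95% of all genes were called at 30, 90 and 240 min. Of all genes, 0.351%, 3.32% and 2.29% had introns called higher at these times and 0.215%, 2.91% and 2.66% had introns called lower. The median gene body log2 ratio of the 8 members was 0.1 at 30 min, 1.02 at 90 min and 0.17 at 240 min, beside 0.02, -0.01 and 0.03 over 10736 genes. The 3 comparisons share the untreated pools.

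**Figure D5:**
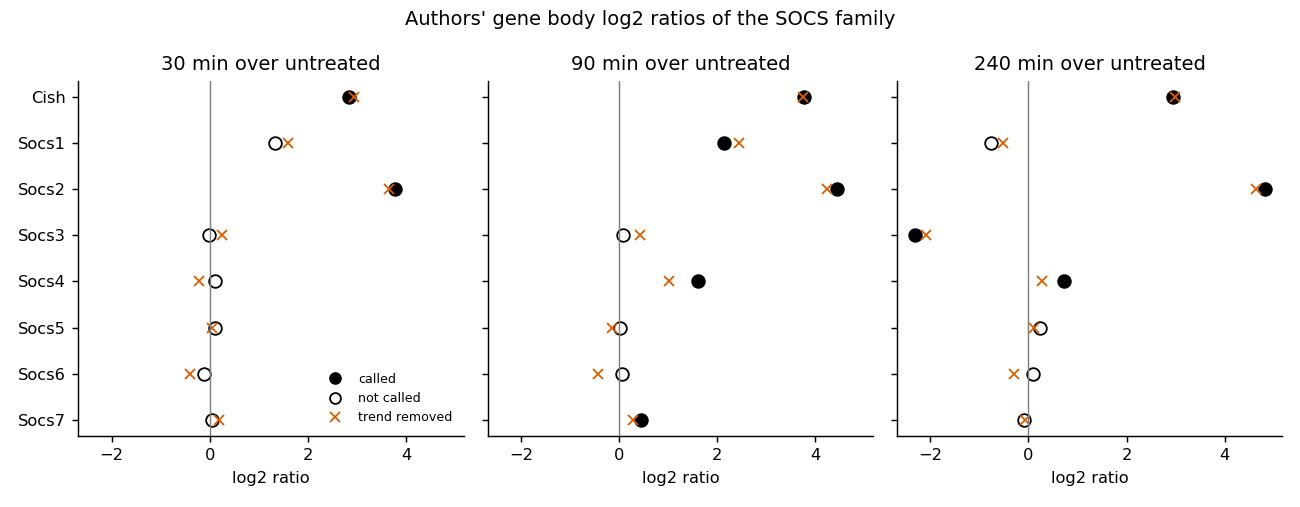
Log2 ratio of GH over untreated from the authors' deposited table for each SOCS family gene over the gene body at 30, 90 and 240 min; filled circles are called at an adjusted p below 0.05, open circles are not, and crosses show the ratio with the length and GC trend removed. Cish and Socs2 are called at all 3 times and Socs3 at 240 min alone.

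Pools that lie apart without regard to size were common in this series. Both pools were above both untreated pools for 2 members at 30 min, where 14.5% of 7872 genes were. This held for 5 members at 90 min (35.6% of genes) and for 4 at 240 min (42% of genes), namely Cish, Socs2, Socs4 and Socs5. Both pools were below for 0 members at 30 min and 0 at 90 min (23.8% and 33.4% of genes), and for Socs1 and Socs3 at 240 min (23.5% of genes).

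Among the receptors that SOCS proteins restrain, calls were made at the later times. Of 24 receptor genes, 19 were measured (a mean over groups of 1 FPKM or more), with 0 called at 30 min, 8 higher and 1 lower at 90 min, and 7 higher and 2 lower at 240 min. Their median log2 ratio was 0.04 at 30 min, 0.32 at 90 min and 0.2 at 240 min, beside 0.02, -0.01 and 0.03 over all 10736 genes at that level, which is also the yardstick for the lists that follow. Of these 10736 genes, 0.512% were called at 30 min, 28.4% at 90 min and 23% at 240 min, and list counts near those shares are no result about the list. The GH receptor gene Ghr had 154 and 147 FPKM at 240 min against 98.2 and 88.2 FPKM in untreated livers, 1.56-fold higher in the authors' deposited table (adjusted p = 0.000221). Prlr, the prolactin receptor gene, was 2.08-fold higher at 240 min in the authors' deposited table (adjusted p = 1.69e-10). Egfr, the EGF receptor gene, had 38.1 and 23.6 FPKM at 240 min against 6.31 and 5.997 FPKM in untreated livers, 4.8-fold higher in the authors' deposited table (adjusted p = 6.39e-24). Lifr, the leukemia inhibitory factor receptor gene, and Il13ra1, an interleukin-13 receptor gene, were 2.14-fold and 2.1-fold higher at 90 min in the authors' deposited table (adjusted p = 4.99e-18 and 1.56e-14).

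Of the JAK kinases and STAT factors, 10 of 11 were measured. At 30 min 0 were called, at 90 min 1 was higher (Stat2) and at 240 min 1 was lower (Stat5b), beside shares of 28.4% at 90 min and 23% at 240 min over all genes at that level. The median log2 ratio was -0.17, 0.08 and -0.17 at 30, 90 and 240 min. Stat5b, the main STAT5 gene of male liver, had 8.02 and 8.41 FPKM at 240 min against 11.8 and 12.8 FPKM in untreated livers, 1.55-fold lower in the authors' deposited table (adjusted p = 0.000905). Jak2, the kinase of the GH receptor, had ratios of 1.02, 1.28 and 0.889 at 30, 90 and 240 min in the authors' deposited table, none called. Stat2, an interferon factor, was 1.56-fold higher at 90 min in the authors' deposited table (adjusted p = 2.91e-05). Stat5a was not called, with a ratio of 0.566 at 240 min in the authors' deposited table (adjusted p = 0.0607), and neither was Stat3, with 1.19 (adjusted p = 0.445), all over the gene body. The introns of Stat3 were 2.06-fold lower at 240 min in the authors' deposited table (adjusted p = 9.8e-06).

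The SOCS box works through elongins, cullins and their partners. Of 8 such genes measured, 0 were called at 30 min, 1 higher and 1 lower at 90 min, and 3 higher and 0 lower at 240 min, with median log2 ratios of 0.17, -0.02 and 0.36. The 2 calls at 90 min were near the 28.4% over all genes, and the 3 at 240 min stand beside 23%. Cul5, the cullin that SOCS boxes recruit, was 1.6-fold higher at 90 min (adjusted p = 6.69e-05) and 1.55-fold higher at 240 min (adjusted p = 0.00547) in the authors' deposited table. Ube2f, a conjugating enzyme for the modifier NEDD8, was 1.7-fold higher at 240 min in the authors' deposited table (adjusted p = 0.000751). Tceb2, which encodes elongin B, was 1.39-fold lower at 90 min in the authors' deposited table (adjusted p = 0.00569), and Cul2 was 1.44-fold higher at 240 min there (adjusted p = 0.0205). Of 27 other genes with a SOCS box, 13 were measured, with Wsb1 higher and Spsb2 lower at 90 and at 240 min and 0 called at 30 min, and with median log2 ratios of -0.08, -0.17 and 0.15 at 30, 90 and 240 min.

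Other inhibitors of the pathway, 16 in all and all measured, had 0 calls at 30 min and 3 higher and 1 lower at each later time, with median log2 ratios of 0.01, 0.15 and 0.03. The 4 calls of 16 at each later time were near the shares over all genes of 28.4% and 23%. Grb10, an adaptor that dampens insulin and growth factor receptors, had 4.18 and 3.48 FPKM at 240 min against 0.938 and 0.811 FPKM in untreated livers. It was 4.19-fold higher in the authors' deposited table (adjusted p = 6.4e-18). Ptpn2, a phosphatase of JAK and STAT proteins, was 1.77-fold higher at 90 min in the authors' deposited table (adjusted p = 8.52e-07), and Ptpn1 was 1.47-fold higher at 240 min there (adjusted p = 0.0052). Pias4 was called lower at 90 min.

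Of 17 measured STAT5 targets in liver, a list that holds the members Cish, Socs2 and Socs3, 3 were higher and 0 lower at 30 min, 7 higher and 6 lower at 90 min, and 5 higher and 9 lower at 240 min, with median log2 ratios of 0.58, 0.08 and -0.46. Cish and Socs2 were 2 of the 3 genes called at 30 min, the other being Myc, and Socs3 was 1 of the 9 lower at 240 min. Igf1, the main growth factor made under GH, had 33.8 and 19.3 FPKM at 30 min, 37.3 and 36.4 FPKM at 90 min and 73.3 and 71.1 FPKM at 240 min, against 13.4 and 12.1 FPKM in untreated livers. Its gene body ratios in the authors' deposited table were 2.17 at 30 min, not called (adjusted p = 0.118; its introns were called there, 4.45-fold higher, adjusted p = 0.00128), 2.89 at 90 min (adjusted p = 3.28e-36) and 5.45 at 240 min (adjusted p = 6.06e-56). Onecut1, a liver transcription factor, was 14-fold higher at 90 min in the authors' deposited table (adjusted p = 1.15e-74).

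Of 27 measured STAT3 and acute-phase genes, 0 were higher and 1 lower at 30 min, 3 higher and 10 lower at 90 min, and 5 higher and 8 lower at 240 min, with median log2 ratios of -0.34, -0.25 and -0.16. Junb, an early response transcription factor, had 19.6 and 17.5 FPKM at 240 min against 89.1 and 97.4 FPKM in untreated livers, 5.25-fold lower in the authors' deposited table (adjusted p = 2.42e-47). Pim1, a kinase gene induced by cytokines, was 3.75-fold lower at 240 min in the authors' deposited table (adjusted p = 1.27e-20). Over the gene body Steap4 moved the other way, 2.16-fold higher at 90 min there (adjusted p = 4.6e-19). The 5 genes called higher at 240 min over the gene body were Fga, Fgb, Fgg, Il1r1 and Steap4. Steap4 introns were 6.57-fold lower at 240 min in the authors' deposited table (adjusted p = 4.22e-28). The summed mean of the list was 17000, 19500 and 26300 FPKM at 30, 90 and 240 min, against 22100 FPKM in untreated livers. The acute-phase protein gene Orm2 was 3.02-fold lower at 90 min in the authors' deposited table (adjusted p = 3.18e-14). Its pools lay far apart at 30 min, at 329 and 39.1 FPKM, and at 240 min, at 313 and 91.5 FPKM, both times on either side of the 204 and 226 FPKM of untreated livers.

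Genes whose 3 ratios lay nearest to those of a member were found among 10742 genes by Euclidean distance of the log2 ratios over the 3 times, with a minimum of 1 FPKM in the highest group. A gene that is low in untreated livers passes this minimum only if it is higher after GH, so such genes had to share a raised course with Cish and Socs2. For Socs3 they were Upp2, Abcg8 and Krt23, at distances of 0.348, 0.4 and 0.536 on the log2 scale. The authors' deposited table has these 3 genes lower at 240 min, at log2 ratios of -2.18, -1.95 and -2.18 (adjusted p = 8.1e-13, 3.18e-30 and 5.26e-23). Being lower at 240 min like Socs3 follows from the choice by distance and is no separate result. For Cish and Socs2 all 3 nearest entries were small RNA genes, Mir1981, Mir7231 and Mir7673 for Cish and Snora33, Snord58b and Mir1839 for Socs2, all listed at 0 in untreated livers and none called. With small RNA genes left out, a choice made after seeing the values, the nearest to Cish were Tchh at 1.23, Onecut1 at 1.69 and Ltb4r1 at 1.72. Those nearest to Socs2 were Nrep at 1.48, Prok1, listed at 0 in untreated livers, at 2.13 and Cish at 2.2. Tchh, Ltb4r1 and Prok1 reached 1 FPKM only in groups given GH. Nrep had mean FPKM of 1.65 in untreated livers and 8.24, 25.4 and 53 at 30, 90 and 240 min.

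The tissue label was checked against hepatocyte genes (Alb, Apoa1, Ttr, Serpina1c, Cps1 and Tat). All 6 were present, with a summed mean of 45900 FPKM at 30 min, 41800 at 90 min and 35400 at 240 min, against 51900 in untreated livers. Apoa1, Tat and Ttr were called lower at 90 and at 240 min, Serpina1c lower at 90 min and Alb lower at 240 min, and Cps1 was called higher at 90 min. The 7 neutrophil markers in the table summed to 13.9, 51 and 21.3 FPKM at 30, 90 and 240 min, against 34.6 FPKM in untreated livers, with Csf3r, Cxcr2 and S100a9 called higher at 90 min and S100a8 and S100a9 called lower at 240 min. The 9 macrophage and Kupffer cell markers summed to 149, 136 and 129 FPKM, against 167 FPKM, with 3 called lower at 240 min (Clec4f, Csf1r and Timd4). Sums of 8 endothelial markers were 108 to 124 FPKM and of 8 stellate cell and fibroblast markers 86.5 to 96.8 FPKM over the 4 groups. Those of T and NK cells were 3.87 to 5.53 FPKM, of B cells 3.89 to 6.52 FPKM and of cholangiocytes 16.4 to 39.5 FPKM, the highest at 240 min, where Krt19 and Spp1 were called higher. No marker of these lists was at 0 in every group. The part of these sums in the values of Socs1, which was called higher at 90 min, and of Socs3, which was lower at 240 min, was not tested.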

How the data were processed

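Liver poly-A RNA of 8 pools in 4 groups was sequenced in strand-specific libraries, as the labels' protocols state. The submitters' processing notes name the build mm9 and the tools TopHat2, featureCounts and edgeR, without versions. Each deposited FPKM is an average of the 2 pools of a group made by the authors, per the file headers. The ratio of GH over untreated and its adjusted p-value were likewise computed by the authors, per the file headers. The length behind the deposited intronic FPKM was taken as the span minus the exonic length, which gave whole reads. Intronic ratios of the authors are not the quotient of these means. The untreated columns are repeated, and 4 of the repeated columns were not used.

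The members and lists were chosen with earlier results of these data known. The deposited values are not counts and no count test was run, so calls are the authors' adjusted p below 0.05. Library totals, and the reads of each pool, were worked out as the whole numbers that explain a mean of 2 pools. All 8 members were solved with the recovered totals and 0 of 8 with totals 1000 reads too high. Of 8117 genes at 1 location with 1 to 60 FPKM, 7872 were solved. The solver was tested on simulated data. Gene body reads did not contain the intronic reads where this could be seen: Onecut1 had 64 gene body and 92 intronic reads in the larger 30 min library. The depth of 5937824 to 17124712 reads sets the precision, and intervals and limits cover counting error only.

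Named genes were all members, up to 4 called genes per list with the smallest adjusted p, the 3 genes nearest to Cish, Socs2 and Socs3, and Ghr, Prlr, Igf1, Jak2, Stat5a, Stat5b and Stat3. Not all of them are printed, and 1 of the lists is not reported here. Length and GC content came from the longest GENCODE M21 transcript, with a value for 96.1% of 10736 genes. Starts in the text are 1-based. Alternatives were an adjusted p of 0.01, a 2-fold minimum, pseudocounts of 1 and 0.1, centring, trend removal and, chosen after seeing the data, leaving out each pool by the reads worked out for the others. Python 3.11.15, numpy 2.4.6, pandas 2.3.3, statsmodels 0.14.6 and matplotlib 3.10.9 were used.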

Additional observations from a re-analysis of the deposited data

Results flagged for a closer look

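Socs1 over the gene body stood above both untreated pools in both 90 min pools and below them in both 240 min pools. Its log2 ratio at 240 min in the authors' deposited table was -0.755, and that value was not called. The difference between the times was not tested.

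Socs4 introns stood above both untreated pools in both 90 min pools and below them in both 30 min pools, with a log2 ratio at 30 min of -1.61 in the authors' deposited table. This rests on 0 and 1 reads at 30 min against 1 and 2 in untreated livers, and the difference between the times was not tested.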

How the results depend on the processing

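The counts of called members in the 6 comparisons stayed within 1.5 times of the reported counts at an adjusted p below 0.01 and with a 2-fold minimum. Under the stricter p, Socs7 at 90 min, Socs4 at 240 min and the introns of Socs2 at 240 min were no longer called, and under the 2-fold minimum Socs7 and Socs4 were not, at these times. None of the 18 called values changed sign under any alternative run, which was largely fixed in advance. The stricter p and the 2-fold minimum leave the ratio as it is. The pools of each called value lay apart from both untreated pools, so leaving out 1 pool or adding a pseudocount could not change the sign. Of the 27 values that were not called, 17 differed in sign from the authors' ratio when 1 pool was left out. This held for 4 with either pseudocount and 1 after centring, and for 5 of the 13 over the gene body with the length and GC trend removed. Values with a pseudocount or without 1 pool were quotients of FPKM means. A pseudocount cannot turn the sign of such a quotient, so those 4 differences came with the change of measure. The same 4 values are among the 17. Without 1 pool, the lowest and highest quotients were 2.96 and 10.6 for Cish and 3.74 and 22.1 for Socs2 at 30 min. Without 1 pool no quotient was formed where the remaining pool held 0 reads, as for the Socs3 intron at 240 min without its larger library, and Socs1 introns, at 0 in untreated livers, were left out. By Pearson correlation over the 4 groups, the nearest genes were others: Cyld, Tmem87a and Wasl for Cish. No paired analysis was possible because the table holds group means and does not say which numbered pool has which total. Fits with edgeR or DESeq2 and with a pool block were not run: the deposited values are mean FPKM, and the reads worked out for each pool were used for description only. The low intronic read numbers of Socs1, Socs4 and the untreated Cish and Socs2 limit what depth can show.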
